A study of Mus musculus with 6 samples.

Results

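The genes described here are 30 genes of cholesterol synthesis, uptake and export in mouse liver, among the 55222 entries of the deposited expression table. They were chosen by name as a pathway, and all 30 were found. They comprise 18 enzymes of synthesis, 4 genes that control the sterol sensor, 3 genes of uptake and intracellular transport, and 5 genes of export and esterification. RNA from whole livers of C57BL/6 mice was sequenced in 6 libraries, 2 for each of 3 groups. The livers called Normal carry no treatment in the labels. The AAV-Ctrl and AAV-shPhpt1 livers came from mice given carbon tetrachloride (CCl4, a solvent that injures hepatocytes) in olive oil at 12.5 ml/kg intraperitoneally, with 2 injections a week, and were taken 48 h after the last dose. Both of these groups also received an adeno-associated virus (AAV) into a vein, according to the labels after 1 week of CCl4, and the viruses differ in carrying a control sequence or a short hairpin RNA against Phpt1, a phosphohistidine phosphatase. The labels name neither the promoter of the virus nor the cells it reached. They state 5 mice per group but do not tie animals to libraries, so p-values measure the spread between these libraries. The labels list neither toxin nor virus for Normal livers, and do not state whether these mice received oil or a virus. Effects of the toxin and of the virus cannot be told apart in any comparison with Normal.

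Cholesterol is built from acetyl-CoA through mevalonate and isoprenoids to squalene, which is closed into lanosterol and trimmed to cholesterol. The transcription factor SREBP2 switches on the genes of this route when sterols in the endoplasmic reticulum are low: its escort SCAP then carries it to the Golgi for cleavage, and the INSIG proteins hold both back when sterols are plentiful. The liver disposes of cholesterol into bile through the ABCG5-ABCG8 transporter, exports it to lipoproteins through ABCA1, and stores it as esters made by SOAT enzymes.

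Levels are in FPKM, a read count scaled to transcript length and to library size, so that levels of different genes can be set side by side. Differences were tested with limma on log2(FPKM + 1) over the 13517 genes whose mean reached 1 FPKM in any group. A gene passed when its Benjamini-Hochberg adjusted p over all of them was under 0.05. All 30 members were among these genes. The libraries held 21488841 to 24188029 reads, as recovered from the values. AAV-shPhpt1 replicate 2 stood apart from its group: on the leading principal component (64.1% of the variance) it lay at -2.26, between Normal (-59.1 and -57.1) and the other 3 injured livers (32.8 to 45.6). Phpt1 itself was listed at 0.0521 to 0.259 FPKM, from 1 to 5 reads per library, with 4 and 5 reads under the hairpin, so no lowering of the target can be read from them. The 10 hepatocyte markers were abundant in every library, with sums of 93610 to 155300 FPKM. The sum of 8 pericentral hepatocyte markers was 8860 and 9460 in Normal and 911 to 2480 in the injured livers, with 4 of 8 passing downward between AAV-Ctrl and Normal. Cyp2e1 made up most of that sum in Normal, at 5999 and 6342 FPKM. Cyp1a2 and Axin2 had slightly higher means in AAV-Ctrl than in Normal, with overlapping libraries. The sum of 8 stellate cell markers was 24.5 and 29.0 in Normal, 362 and 308 with AAV-Ctrl, and 164 and 54.3 with AAV-shPhpt1. Of these 8, 7 passed upward between AAV-Ctrl and Normal and 0 between AAV-shPhpt1 and Normal. Des, Lrat and Reln overlapped between AAV-Ctrl and AAV-shPhpt1. Over all tested genes, 18.2% rose and 2.28% fell between AAV-Ctrl and Normal. The sum of 10 macrophage markers, of which 7 passed upward between AAV-Ctrl and Normal, was 105 to 139 FPKM in Normal, 955 to 1132 in AAV-Ctrl, 662 in AAV-shPhpt1 replicate 1 and 191 in AAV-shPhpt1 replicate 2. In whole liver, fewer cells of a type and less RNA per cell cannot be told apart.

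In Normal liver the members ranged widely in level. Lcat, which esterifies cholesterol in plasma lipoproteins, was the highest at 265 ± 22.2 FPKM (SD, n = 2), followed by the sterol desaturase Sc5d at 229 ± 30.8, the sterol sensor protein Insig1 at 203 ± 40.1 and the sterol isomerase Ebp at 200.1 ± 20.8. Each overlapped its neighbour in this order over the 2 libraries. Fdps, which makes farnesyl diphosphate, was the lowest enzyme at 3.18 ± 1.03 FPKM, and Mylip, a ubiquitin ligase for lipoprotein receptors, the lowest member at 1.01 ± 0.717. Enzymes after lanosterol together gave 825 and 846 FPKM in the Normal libraries, against 145 and 141 for the enzymes up to the isoprenoids and 80.3 and 88.3 for those from squalene to lanosterol.

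**Figure D1:**
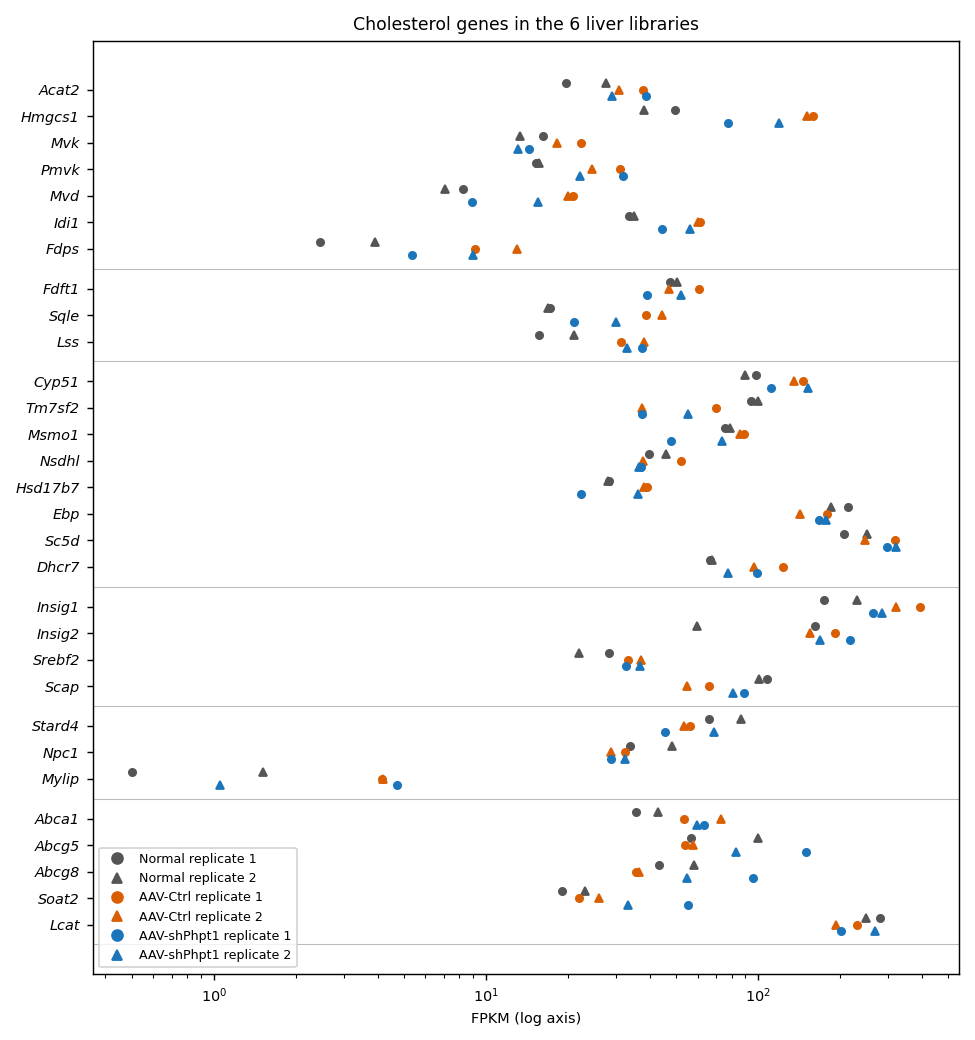
FPKM (log axis) of each of the 30 genes in each of the 6 libraries, with grey lines between the steps of synthesis, the control genes, uptake and transport, and export and esterification. Colours give the group and circles or triangles replicate 1 or 2; Lcat, Sc5d, Insig1 and Ebp lie at the high end and Mylip and Fdps at the low end.

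The first comparison, AAV-Ctrl against Normal, sets livers given CCl4 and a control virus beside livers with no treatment in the labels. Of the enzymes, 5 of 7 from acetyl-CoA to the isoprenoids, 2 of 3 from squalene to lanosterol and 1 of 8 after lanosterol rose, and the difference between the steps was not tested. Insig1 rose as well, and Scap, the escort of SREBP2, fell. None of the 3 members of uptake and intracellular transport or of the 5 members of export and esterification passed. In all, 9 of the 30 members rose and 1 fell, where 18.2% of all tested genes rose and 2.28% fell. The median log2 difference was 0.46 over the 30 members and 0.55 over the 18 enzymes, and 0.35 over all genes tested.

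Hmgcs1 makes HMG-CoA, the precursor of mevalonate (GRCm38 chr13:119690379-119708260, plus strand). It stood at 49.4 and 38.2 FPKM in Normal, 159 and 151 with AAV-Ctrl, and 77.9 and 119.8 with AAV-shPhpt1. Both AAV-Ctrl libraries lay above all others, and the AAV-shPhpt1 libraries lay between the other groups without overlapping either. AAV-Ctrl was 3.54-fold higher than Normal, a log2 difference of 1.81 ± 0.23 (SE, adjusted p = 0.0151).

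Mvd, which decarboxylates mevalonate diphosphate (chr8:122433601-122443422, minus strand), was listed at 8.24 and 7.10 FPKM in Normal, 20.9 and 20.1 with AAV-Ctrl, and 8.92 and 15.6 with AAV-shPhpt1. The AAV-Ctrl libraries were again the highest, and AAV-shPhpt1 replicate 1 lay close to Normal. The rise from Normal to AAV-Ctrl was 2.67-fold (log2 1.31 ± 0.26, adjusted p = 0.0261).

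The remaining early enzymes that rose were Fdps (3.47-fold, adjusted p = 0.0275), Pmvk, the phosphomevalonate kinase (1.80-fold, adjusted p = 0.0442), and Idi1, the isopentenyl diphosphate isomerase (1.77-fold, adjusted p = 0.0243). Fdps was low, at 2.46 and 3.91 FPKM in Normal and 9.12 and 13.0 in AAV-Ctrl. Its transcripts share 26.7% of their exonic bases with Gm43738 on the same strand, which was listed at 0 in every library, and resemble 4 processed pseudogenes listed at or below 1.20 FPKM. Idi1 shares 684 bases at 100% identity with the pseudogene Gm13502, listed at 0.340 to 1.03 FPKM, and 681 bases at 97.7% with Gm35570, listed at 6.49 and 13.9 FPKM in Normal, 3.32 and 7.99 with AAV-Ctrl, and 5.04 and 7.65 with AAV-shPhpt1. How the authors' counting divided reads between such copies is not stated, so values of Fdps and Idi1 are uncertain to that extent.

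The other early enzymes were Mvk, the mevalonate kinase, and Acat2, which joins acetyl-CoA units in the cytosol. Both had AAV-Ctrl libraries above the Normal ones but missed the threshold, with log2 differences of 0.44 (95% interval 0.02 to 0.85, adjusted p = 0.109) and 0.53 (-0.02 to 1.07, adjusted p = 0.131). Acat2 shares 1477 bases at 97.7% identity with Acat3, which was listed at 43.3 to 56.7 FPKM, above Acat2 in every library, and the division of reads between them is uncertain.

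Sqle, the squalene epoxidase (chr15:59315077-59331192, plus strand), measured 17.3 and 16.9 FPKM in Normal, 38.7 and 44.5 with AAV-Ctrl, and 21.1 and 30.1 with AAV-shPhpt1. The 3 groups did not overlap, in the order Normal, AAV-shPhpt1, AAV-Ctrl. AAV-Ctrl was 2.44-fold above Normal (log2 1.23 ± 0.19, adjusted p = 0.0181). Lss, which closes squalene epoxide into lanosterol, had 15.7 and 21.02 FPKM in Normal, 31.4 and 38.2 with AAV-Ctrl, and 37.4 and 33.1 with AAV-shPhpt1. Here both injured groups lay above Normal and overlapped each other, and AAV-Ctrl was 1.89-fold higher than Normal (adjusted p = 0.0295). Fdft1, the squalene synthase between the isoprenoids and Sqle, was 48.9 ± 2.19 FPKM in Normal and 54.0 ± 9.58 in AAV-Ctrl, with overlapping libraries and a log2 difference of 0.13 (95% interval -0.34 to 0.60). It shares 18.3% of its exonic bases with Ctsb on the opposite strand, a cathepsin gene at 241 to 529.9 FPKM, and whether the counting used strand is not stated.

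Among the 8 enzymes after lanosterol, Dhcr7, the reductase of the last step, rose from 66.5 and 67.5 FPKM in Normal to 123 and 96.7 in AAV-Ctrl (1.64-fold, adjusted p = 0.0440). Cyp51, the lanosterol demethylase, was higher in both AAV-Ctrl libraries without passing (1.498-fold, adjusted p = 0.0610). Tm7sf2, a sterol C14 reductase, pointed the other way, with 94.3 and 99.7 FPKM in Normal, 69.8 and 37.5 with AAV-Ctrl, and 37.5 and 55.5 with AAV-shPhpt1. All 4 injured livers lay below Normal, but the AAV-Ctrl libraries differed widely and the 1.81-fold lower mean did not pass (adjusted p = 0.0832). Tm7sf2 shares 12.1% of its exonic bases with Vps51 on the same strand, listed at 0.472 to 0.998 FPKM, and the division of reads between them is uncertain. Ebp was 1.25-fold lower with non-overlapping libraries (adjusted p = 0.183). Msmo1, the methylsterol oxidase, and Hsd17b7, a sterol ketoreductase, had AAV-Ctrl libraries above Normal with log2 differences of 0.17 and 0.44, while Nsdhl, which acts between them, and Sc5d overlapped at 0.05 and 0.30, and none of these 4 passed.

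**Figure D2:**
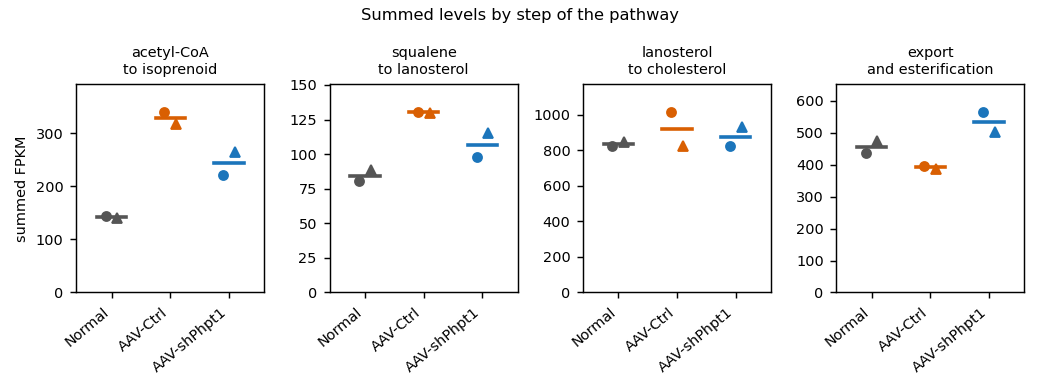
Summed FPKM of the 7 enzymes from acetyl-CoA to isoprenoids, the 3 from squalene to lanosterol, the 8 from lanosterol to cholesterol and the 5 genes of export and esterification, by library (points) with the group mean (bar). The first 2 sums are lowest in Normal and highest in AAV-Ctrl, and the sum of export and esterification is lowest in AAV-Ctrl. In that last sum Lcat is the most abundant gene, with means of 265 FPKM in Normal and 212 in AAV-Ctrl. From Normal to AAV-Ctrl 3 of its 5 genes have log2 differences below 0 and 2, among them Abca1, above 0.

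Summed over the step from acetyl-CoA to the isoprenoids, the enzymes gave 145 and 141 FPKM in Normal, 341 and 318 with AAV-Ctrl, and 222 and 265 with AAV-shPhpt1. From squalene to lanosterol the sums were 80.3 and 88.3, then 131 and 129.8, then 97.6 and 116. In both steps the sums kept the order Normal, AAV-shPhpt1, AAV-Ctrl with no overlap. The first sum is weighted by Hmgcs1, with means of 43.8, 98.9 and 155 FPKM in that order of groups. Taken singly, AAV-shPhpt1 lay wholly below AAV-Ctrl for 5 of the 7 enzymes and 1 of the 3, against 26.2% of all genes. Acat2, Pmvk, Fdft1 and Lss overlapped between these 2 groups. After lanosterol the sums were 825 and 846 in Normal, 1018 and 822 with AAV-Ctrl, and 823 and 932 with AAV-shPhpt1, and all groups overlapped. AAV-shPhpt1 replicate 2, the library with the lower macrophage sum of its group, had the higher sum of the pair in all 3 steps.

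Of the control genes, Insig1 (chr5:28071363-28078662, plus strand) stood at 174 and 231 FPKM in Normal, 394 and 322 with AAV-Ctrl, and 265 and 285 with AAV-shPhpt1. The groups did not overlap, and AAV-Ctrl was 1.77-fold above Normal (adjusted p = 0.0335). Insig2, its relative, which is not a target of SREBP2 in the way Insig1 is, had Normal libraries that differed widely, at 162 and 59.9 FPKM against 192 and 156 in AAV-Ctrl, and the groups overlapped. The ratio of Insig1 to Insig2 was 1.08 and 3.86 in the Normal libraries and 2.05 and 2.07 in AAV-Ctrl.

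Scap (chr9:110333288-110384950, plus strand) was the member that fell. It stood at 107.6 and 100.6 FPKM in Normal, 65.8 and 54.7 with AAV-Ctrl, and 89.2 and 81.0 with AAV-shPhpt1. The groups did not overlap, and AAV-shPhpt1 lay between the others. AAV-Ctrl was 1.73-fold lower than Normal, a log2 difference of -0.78 ± 0.14 (SE, adjusted p = 0.0241). Srebf2, which encodes SREBP2, was higher in both AAV-Ctrl libraries (35.2 ± 2.56 FPKM) than in Normal (25.2 ± 4.60) without passing (1.40-fold, adjusted p = 0.0845).

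Export, esterification, uptake and transport had no member past the threshold. Abca1 was the nearest, at 35.8 and 42.8 FPKM in Normal and 53.7 and 73.4 in AAV-Ctrl (1.62-fold, adjusted p = 0.0503). Abcg8 and Lcat had AAV-Ctrl libraries below Normal, 1.41-fold and 1.25-fold lower in the mean, with adjusted p of 0.248 and 0.238. Abcg5 and the esterifying enzyme Soat2 overlapped between these groups. Stard4, a carrier of sterols in the cytosol, and Npc1, which releases cholesterol from lysosomes, were 1.39-fold and 1.35-fold lower in non-overlapping libraries, with adjusted p of 0.178 and 0.173. Mylip was listed at 0.501 and 1.52 FPKM in Normal and 4.16 and 4.19 in AAV-Ctrl, from 27 and 91 reads against 231 and 253. Its log2 difference of 1.41 did not pass (adjusted p = 0.0891), and did pass in fits without 1 of the AAV-shPhpt1 libraries, whose values were 4.71 and 1.05 (adjusted p = 0.0276 without replicate 1 and 0.0283 without replicate 2).

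**Figure D3:**
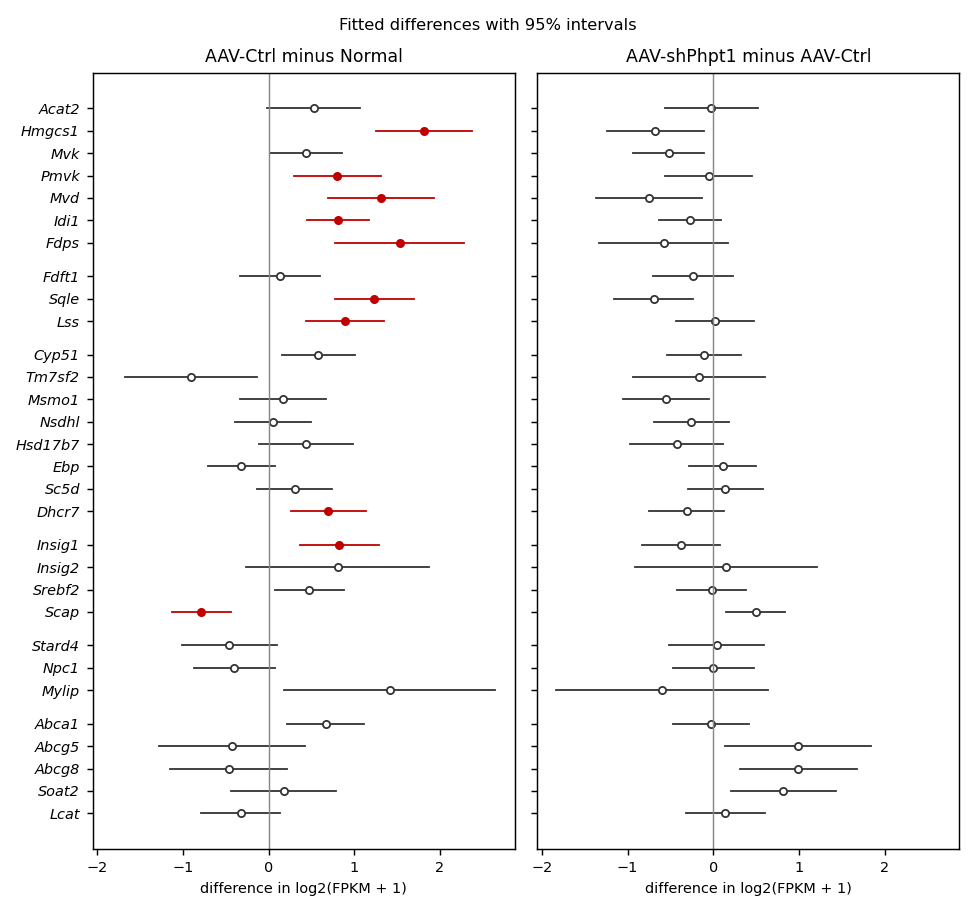
Fitted difference in log2(FPKM + 1) of each gene with its 95% interval, for AAV-Ctrl minus Normal (left) and AAV-shPhpt1 minus AAV-Ctrl (right); filled red points passed the threshold. On the left 9 genes lie above 0 and Scap below 0 in red, and on the right no gene is red.

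Libraries of AAV-Ctrl lay wholly above those of Normal for 17 members and wholly below for 7, against 60.0% and 12.5% of all genes tested. The whole distribution of genes was thus displaced upward on this scale, by 0.35 at the median. After each library was centred on its own median, the all-gene median became -0.10, and the split of calls over all genes went from 2464 higher and 308 lower to 566 and 729. On that scale Hmgcs1 remained the single member that passed upward (log2 1.36, adjusted p = 0.0416) and Scap still passed downward (-1.24, adjusted p = 0.0215). Quantile normalization gave 632 and 460 calls and 3 risen members, Hmgcs1, Sqle and Insig1, with Scap again lower. Without the filter on low values, over 28062 genes, 0 members passed, with Hmgcs1 at an adjusted p of 0.0574. Leaving out either Normal or either AAV-Ctrl library, which leaves 1 group with 1 library assumed to vary like the rest, left 0 members called in either direction, and over all genes 2 to 12 called higher and 4 to 7 lower. The log2 difference of Hmgcs1 was 1.63 to 1.99 in these fits.

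Of 51 other genes of sterol handling, 48 were tested. Between AAV-Ctrl and Normal 12 of the 48 rose and 2 fell, where 18.2% of all tested genes rose and 2.28% fell. Among those that passed, the largest differences were those of Soat1 and Abcg1, an enzyme that esterifies cholesterol and a cholesterol exporter that are both prominent in macrophages. Soat1 stood at 1.77 and 1.63 FPKM in Normal, 10.9 and 12.2 in AAV-Ctrl, 10.04 in AAV-shPhpt1 replicate 1 and 1.84 in AAV-shPhpt1 replicate 2. Abcg1 followed with 1.49 and 1.41 in Normal, 11.4 and 9.01 in AAV-Ctrl, and 11.5 and 2.15 in the AAV-shPhpt1 libraries. AAV-shPhpt1 replicate 2 was thus near Normal for both genes. Macrophage markers in that library lay on both sides of Normal, with Lgals3 at 83.2 FPKM against 7.125 and 2.80 and Clec4f at 4.295 against 45.3 and 40.4, and their part in these values was not tested. Fdx1, the ferredoxin of mitochondrial sterol hydroxylases, was 2.26-fold lower in AAV-Ctrl (adjusted p = 0.0310), and Lipa, the lysosomal acid lipase that frees cholesterol from esters, 2.05-fold higher (adjusted p = 0.0281). Soat1 and Abcg1 rose 6.77-fold and 7.05-fold between Normal and AAV-Ctrl, with adjusted p of 0.0453 and 0.0487.

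Promoter sequences (RefSeq, GRCm38.p6, 250 bases before to 50 after the start) were at hand for 24 of the 30 members, and not for Fdps, Fdft1, Sqle, Stard4, Npc1 and Soat2. They were searched on both strands for letters bound by factors of this pathway. TCACNCCAC, a form of the sterol regulatory element through which SREBP2 binds, occurred in 1 of their 31 promoters (3.23%), that of Hmgcs1, and in 1.24% of the 32851 promoters in the table. The overlapping letters CACCCCAC occurred in 2 of the 31 (6.45%), of Hmgcs1 and Acat2, and in 2.87% of all promoters. CCAAT, bound by the factor NF-Y that acts beside SREBP2, occurred in 21 of the 31 (67.7%) and in 37.4% of all promoters. The DR4 element of liver X receptors, taken as GGTCA repeated on the same strand after 4 bases, occurred in 0 of the 31 and in 0.0457% of all promoters. Such matches describe the letters in these windows and show no binding. The stretches before the starts of Hmgcs1, Mvd and Insig1 are shown because these genes rose in AAV-Ctrl. They represent a gene with a TCACNCCAC match in its window and genes without one. Sterol elements in letters other than those above, or outside the windows, were not searched for. The stretches shown end before the first annotated exon, and capitals mark TCACNCCAC and CCAAT, or its reverse complement ATTGG.
Hmgcs1, chr13:119690101-119690350, plus strand: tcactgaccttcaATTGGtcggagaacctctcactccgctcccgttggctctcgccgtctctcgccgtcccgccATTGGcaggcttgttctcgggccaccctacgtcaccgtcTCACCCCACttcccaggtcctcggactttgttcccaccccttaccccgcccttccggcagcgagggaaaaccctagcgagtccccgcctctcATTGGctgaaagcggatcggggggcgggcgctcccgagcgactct
Mvd, chr8:122443423-122443672, minus strand: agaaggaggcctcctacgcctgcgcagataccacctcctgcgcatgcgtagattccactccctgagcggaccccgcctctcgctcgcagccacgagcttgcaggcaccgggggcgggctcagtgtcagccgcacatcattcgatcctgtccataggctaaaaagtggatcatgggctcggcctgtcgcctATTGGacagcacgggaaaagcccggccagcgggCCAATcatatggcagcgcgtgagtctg
Insig1, chr5:28071162-28071362, plus strand: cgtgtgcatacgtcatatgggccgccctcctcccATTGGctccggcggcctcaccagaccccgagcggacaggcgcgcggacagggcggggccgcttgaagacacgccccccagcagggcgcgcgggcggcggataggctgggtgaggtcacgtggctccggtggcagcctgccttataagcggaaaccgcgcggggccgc
In Hmgcs1 the sterol element lies 137 to 129 bases before the start, with 3 CCAAT matches in the stretch shown. Mvd has 2 CCAAT matches and Insig1 has 1.

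The second comparison, AAV-shPhpt1 against AAV-Ctrl, asks what the hairpin virus changed in livers with the same toxin. No member passed in either direction, and 0% of all genes did, with a smallest adjusted p of 0.307. Without adjustment 4 members were higher and 5 lower at p under 0.05, against 1.56% and 6.92% of all genes (211 and 935 genes), and voom on recovered reads also called 0 genes. Without AAV-shPhpt1 replicate 1, 39 genes were called higher and 338 lower, and without AAV-shPhpt1 replicate 2, 3 and 2, with 0 members in either case. The 5 members lower at unadjusted p under 0.05 in the main fit were the enzymes Hmgcs1, Mvk, Mvd, Sqle and Msmo1. The 4 higher ones were Scap and the export and esterification genes Abcg5, Abcg8 and Soat2. Libraries of AAV-shPhpt1 lay wholly above AAV-Ctrl for 4 members and wholly below for 10, against 11.8% and 26.2% of all genes. The median log2 difference was -0.27 over the 18 enzymes, 0.82 over the 5 genes of export and esterification, and -0.07 over all genes tested. Over those 5 genes the median is the value of Soat2. Abcg5 and Abcg8 stood at 0.99 each, while Abca1 (-0.03) and Lcat (0.14) overlapped between the viruses.

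Abcg5 and Abcg8, whose proteins pair as the biliary sterol transporter, had the largest differences of the members in this comparison. Abcg5 (chr17:84658234-84683011, minus strand) stood at 56.9 and 100.1 FPKM in Normal, 54.0 and 57.8 with AAV-Ctrl, and 150.2 and 83.1 with AAV-shPhpt1. Abcg8 (chr17:84676302-84700333, plus strand) had 43.2 and 58.2 in Normal, 35.7 and 36.5 with AAV-Ctrl, and 96.2 and 54.7 with AAV-shPhpt1. For both genes AAV-shPhpt1 lay above AAV-Ctrl, carried mainly by replicate 1, and replicate 2 lay within the range of Normal. The means were 2.09-fold higher for each, with log2 differences of 0.99 (95% interval 0.14 to 1.84, adjusted p = 0.541) and 0.99 (0.31 to 1.67, adjusted p = 0.492). The ratio of Abcg5 to Abcg8 stayed between 1.32 and 1.72 in all 6 libraries. Without AAV-shPhpt1 replicate 1 the log2 differences were 0.56 and 0.59, and without AAV-shPhpt1 replicate 2 they were 1.41 and 1.39, and neither passed in either case.

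The genes share a start region, and their annotated exons overlap by 82 bases on opposite strands. The bases between the start sites, 84683011 of Abcg5 on the minus strand and 84683121 of Abcg8 on the plus strand, are shown because both genes are read outward from them. Capitals mark AGATAA, letters bound by GATA factors, or its reverse complement TTATCT. These letters were chosen after the sequence was read, and occur in 4 of the 31 member promoters (12.9%) and 11.2% of all. Among the 4 are the windows of Abcg5 and Abcg8, which overlap and both hold the matches shown, so these shares test nothing about the stretch.
Abcg5-Abcg8, chr17:84683012-84683120, plus strand: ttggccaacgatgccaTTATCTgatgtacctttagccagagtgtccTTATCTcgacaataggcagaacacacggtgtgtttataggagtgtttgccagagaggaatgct
The stretch holds 2 matches.

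Soat2, which makes cholesterol esters in hepatocytes and intestine (chr15:102150526-102163469, plus strand), stood at 19.1 and 23.2 FPKM in Normal, 22.0 and 26.0 with AAV-Ctrl, and 55.1 and 33.3 with AAV-shPhpt1. Both AAV-shPhpt1 libraries lay above the other 4, again with replicate 1 the higher. The mean was 1.84-fold that of AAV-Ctrl (log2 0.82, 95% interval 0.20 to 1.43, adjusted p = 0.512) and 2.09-fold that of Normal (adjusted p = 0.0745). Its log2 difference from AAV-Ctrl was 0.46 without AAV-shPhpt1 replicate 1 and 1.17 without AAV-shPhpt1 replicate 2. Scap in AAV-shPhpt1 was 1.41-fold above AAV-Ctrl (95% interval of the log2 difference 0.15 to 0.84, adjusted p = 0.496).

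**Figure D4:**
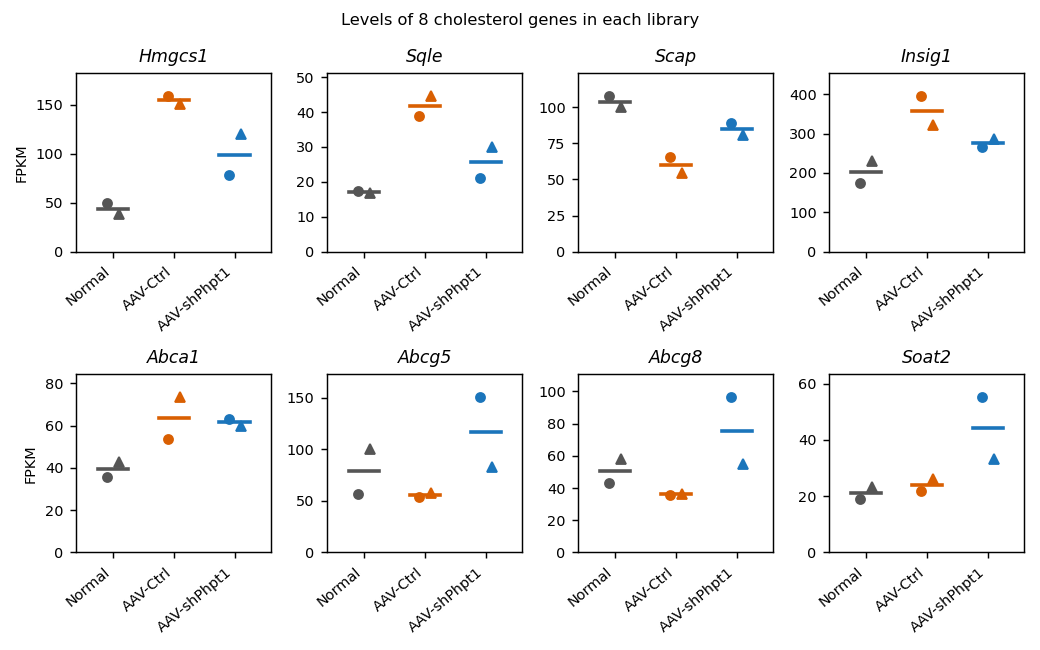
FPKM of 8 genes by library (circle replicate 1, triangle replicate 2) with the group mean (bar); each axis starts at 0. Hmgcs1, Sqle and Insig1 are highest in AAV-Ctrl and lowest in Normal, Scap is the reverse, Abcg5, Abcg8 and Soat2 are highest in AAV-shPhpt1 replicate 1, and Abca1 is lowest in Normal.

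On the synthesis side, AAV-shPhpt1 was 1.57-fold below AAV-Ctrl for Hmgcs1 (log2 -0.67, 95% interval -1.24 to -0.11, adjusted p = 0.528), 1.68-fold below for Mvd (adjusted p = 0.526) and 1.62-fold below for Sqle (log2 -0.70, -1.16 to -0.23, adjusted p = 0.490). Msmo1 stood at 88.7 and 85.8 FPKM with AAV-Ctrl and at 47.9 and 73.6 with AAV-shPhpt1 (adjusted p = 0.559), and Mvk at 22.4 and 18.3 against 14.4 and 13.2 (adjusted p = 0.521). Of these 5 enzymes, Mvk was near its Normal level of 14.8 ± 2.04 FPKM, Msmo1 lay below its Normal libraries, and the other 3 lay above theirs in both AAV-shPhpt1 libraries. Replicate 1 had the lower value for Hmgcs1, Mvd, Sqle and Msmo1, and without AAV-shPhpt1 replicate 1 their log2 differences shrank to between -0.45 and -0.24.

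At the other end, several members showed almost no difference between the viruses. The log2 difference was 0.00 for Npc1 (95% interval -0.47 to 0.48), -0.02 for Srebf2 (-0.42 to 0.39), -0.02 for Acat2 (-0.57 to 0.52), 0.02 for Lss (-0.43 to 0.48) and -0.03 for Abca1 (-0.47 to 0.42). These intervals still allow changes of about 0.4 to 0.6 on the log2 scale in either direction. Lss averaged 35.2 ± 3.04 FPKM (SD, n = 2) in AAV-shPhpt1 and 34.8 ± 4.82 in AAV-Ctrl, and Abca1 61.6 ± 2.37 and 63.5 ± 13.9. Of the 48 other sterol genes tested, 0 passed between the viruses.

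The third comparison, AAV-shPhpt1 against Normal, shares its samples with the other 2 and is not independent of them. No member passed, where 3.26% of all genes were higher and 1.07% lower. The nearest were Hmgcs1 (2.26-fold higher, adjusted p = 0.0520), Lss (1.92-fold higher, adjusted p = 0.0525) and Soat2. AAV-shPhpt1 libraries lay wholly above Normal for 16 members and wholly below for 6, against 52.2% and 12.5% of all genes. Tm7sf2 had the largest difference downward, 2.09-fold lower than Normal (adjusted p = 0.0933). Without AAV-shPhpt1 replicate 2, 4 members passed upward (Pmvk, Abcg8, Soat2 and Mylip) and 1 downward (Msmo1), while over all genes 1965 of 13728 passed upward and 324 downward. Side by side, the log2 differences from Normal were 1.81 in AAV-Ctrl and 1.14 in AAV-shPhpt1 for Hmgcs1, 1.23 and 0.54 for Sqle, 1.31 and 0.57 for Mvd, 0.83 and 0.45 for Insig1, and -0.78 and -0.29 for Scap. For Lss they were 0.89 and 0.92, for Pmvk 0.80 and 0.75, and for Abca1 0.67 and 0.64. The 1 other sterol gene that passed in this comparison was Cltc, the clathrin heavy chain of receptor uptake (1.78-fold higher, adjusted p = 0.0406).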

How the data were processed

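The authors deposited 1 table of expression values for the 6 liver libraries, with no unit in the header. They were taken as FPKM, since the deposited values times the average transcript length per gene (GENCODE annotation of GRCm38) came to whole reads, within 0.05 reads, in 96.3% to 96.6% of cases. The submitters' processing notes list the builds mm8 and mm9 and the aligner Bowtie 0.12.2 without their roles, and the counter and its use of strand are not stated there. Coordinates come from GRCm38, whose transcript lengths match the values, and promoters from RefSeq.

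Groups came from the sample titles. log2(FPKM + 1) was fitted with limma 3.58.1 (trend) in R 4.3.3, with all 6 libraries in 1 fit (3 residual degrees of freedom, prior 3.21), two-sided, with Benjamini-Hochberg adjustment over 13517 genes at 0.05. The fit was tested on simulated data. Fold values are ratios of group means of FPKM, not of the log2(FPKM + 1) scale, which understates changes of low genes. With 2 libraries against 2 no permutation of the samples can reach 0.05. On recovered reads, the chi-squared between replicates was 41.6 to 82.2 per gene, so no library repeats another. The 30 members, the other sterol genes and the marker lists were chosen with earlier results of these data known. All members are described, and of the other sterol genes the 4 with the largest differences among those that passed between AAV-Ctrl and Normal. Alternatives were other filters, pseudocounts and scalings, each library left out in turn, only the libraries compared, the replicate number as a block and, chosen after seeing the data, voom on recovered reads.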

Additional observations from a re-analysis of the deposited data

How the results depend on the processing

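With 2 libraries a group, the calls of single members rest on few degrees of freedom, and Mylip and Fdps on the fewest reads. Between AAV-Ctrl and Normal, 9 members rose and 1 fell; no filter gave 0 and 0, median centring 1 risen, quantile normalization 3 risen, and leaving out 1 library 0 to 11 risen and 0 to 1 fallen, with 0 without either Normal or either AAV-Ctrl library. The causes were not tested. The 0 risen members between AAV-shPhpt1 and Normal became 2 (Hmgcs1 and Lss) with the filter at 5 FPKM and with a pseudocount of 0.1, and leaving out 1 library gave 0 to 4 risen and 0 to 1 fallen. Between AAV-shPhpt1 and AAV-Ctrl the count of members stayed 0 in every alternative, although over all genes it went from 0 to 39 higher and 338 lower without AAV-shPhpt1 replicate 1, and to 3 and 2 without AAV-shPhpt1 replicate 2. Replicate numbers did not pair the libraries (correlations of deviations 0.073, 0.041 and 0.15); the replicate block ended 1 call, that of Insig1 (log2 0.83, adjusted p = 0.0501), left 8 risen members and gave 1898 higher and 264 lower genes. Voom ended the call of Pmvk (adjusted p = 0.0538).

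Signs changed only for members that passed in neither setting. With median centring the log2 difference between AAV-Ctrl and Normal became -0.016 for Mvk, -0.32 for Fdft1, -0.28 for Msmo1, -0.40 for Nsdhl, -0.014 for Hsd17b7, -0.15 for Sc5d and -0.28 for Soat2, and with quantile normalization -0.089 for Fdft1, -0.21 for Nsdhl and -0.14 for Soat2. Between AAV-shPhpt1 and AAV-Ctrl the same scalings gave 0.080 and 0.088 for Acat2, 0.048 and 0.032 for Pmvk, 0.083 and 0.062 for Srebf2, and 0.075 and 0.060 for Abca1, and between AAV-shPhpt1 and Normal -0.34 and -0.19 for Hsd17b7. Leaving out 1 library between AAV-Ctrl and Normal, the range crossed 0 for Fdft1 (-0.049 to 0.31) and Nsdhl (-0.17 to 0.28). Between AAV-shPhpt1 and AAV-Ctrl it did for Acat2 (-0.22 to 0.18), Pmvk (-0.30 to 0.20), Lss (-0.12 to 0.16), Cyp51 (-0.33 to 0.11), Tm7sf2 (-0.60 to 0.28), Ebp (-0.052 to 0.28), Sc5d (-0.041 to 0.32), Insig2 (-0.036 to 0.33), Srebf2 (-0.10 to 0.066), Stard4 (-0.26 to 0.33), Npc1 (-0.082 to 0.085), Abca1 (-0.25 to 0.20), Lcat (-0.07 to 0.35) and Mylip (-1.33 to 0.14). Between AAV-shPhpt1 and Normal it did for Mvk (-0.22 to 0.046), Fdft1 (-0.31 to 0.10), Hsd17b7 (-0.33 to 0.35) and Lcat (-0.39 to 0.027).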

Other observations

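Of the other sterol genes that passed between AAV-Ctrl and Normal, 9 more are given here; they were named after their values were seen, because they passed. Those that rose act at several points of sterol handling. Npc2, the lysosomal partner of Npc1, was 2.04-fold higher (adjusted p = 0.0244), although Npc1 itself was 1.35-fold lower and did not pass. Cltc was 2.01-fold higher (adjusted p = 0.0162). Gramd1a and Osbp, which move sterols between membranes, were 1.82-fold and 1.81-fold higher, and Mbtps2, a protease that cleaves SREBPs in the Golgi, 1.77-fold higher. Nus1 and Dhdds, the subunits of the enzyme that draws farnesyl diphosphate into dolichol, were 1.59-fold and 1.55-fold higher. Erlin2, which takes part in degrading sterol-regulated proteins, was 1.43-fold higher, and the oxysterol-binding protein gene Osbpl1a was 1.49-fold lower. The AAV-Ctrl and Normal libraries did not overlap for any of these 9 genes. The part of other cell types in these values was not tested.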
